A study of Homo sapiens with 9 samples.

Results

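EGR1, EGR2 and EGR3, their corepressors NAB1 and NAB2, the immediate early response genes IER2 and IER3, and the serum response factor gene SRF were followed in HepG2 cells with and without glutamine (Gln). These 8 genes were taken by symbol from the 22587 genes of the expression table, and all 8 were found. EGR1 was picked for its large rise over cells with Gln added, so its difference from those cells is given as a description with no test, and the other genes were picked for their relation to it. HepG2 cells are an established human liver tumor line, and no genetic change is stated for the cells used here. RNA was sequenced from 9 libraries, 3 from cells with Gln added, 3 after 12 h of Gln deprivation and 3 after 24 h. The titles of the samples with Gln added name normal medium. All cells grew in high glucose DMEM with fetal bovine serum, and deprivation began with a change to Gln-free DMEM 24 h after seeding. The labels give GlutaMAX, a stable dipeptide source of Gln, as the treatment of the cells with Gln added, whereas their treatment protocol and the methods put it in the deprivation medium. No source used here gives the time at which the cells with Gln added were collected, nor says whether their medium was changed. The methods speak of triplicates without saying whether these were separate cultures, so the p-values below measure the spread between these libraries, which may be technical.

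Immediate early genes are switched on within minutes of a signal by factors already present in the cell, without new protein synthesis. SRF is a central factor among these and binds the CArG box, a run of A and T bases between CC and GG, together with ELK proteins, which MAP kinases activate, or with actin-regulated MRTF proteins. EGR1 encodes a zinc finger factor that binds GC-rich DNA and recruits NAB1 or NAB2, which hold its activation of target genes in check. NAB2 is itself a known EGR1 target and so closes a feedback loop. In liver, EGR1 is known for rapid induction after injury, partial hepatectomy and metabolic stress.

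The promoters come first, to show where a CArG box stands close to an annotated start. RefSeq promoter windows of GRCh38, running from 250 bases before to 50 bases after an annotated start, were at hand for 6 of the 8 genes, EGR1, EGR2, NAB1, NAB2, IER2 and SRF. CArG boxes were found in a window each of EGR1, EGR2 and SRF, and EGR2 and SRF have further windows without them. Over all 34943 promoter windows, 1.30% held a CArG box. The sequences below run 5' to 3' on the strand of the gene up to the start or the nearest annotated exon, with CArG boxes in capitals. They were chosen to show the windows with a CArG box and, in IER2, a window of an immediate early gene without one. EGR1 lies at chr5:138465229-138465478 on the plus strand, EGR2 (its most downstream start) at chr10:62816374-62816616 on the minus strand, SRF (its first start) at chr6:43171019-43171268 on the plus strand and IER2 at chr19:13150161-13150410 on the plus strand.
EGR1: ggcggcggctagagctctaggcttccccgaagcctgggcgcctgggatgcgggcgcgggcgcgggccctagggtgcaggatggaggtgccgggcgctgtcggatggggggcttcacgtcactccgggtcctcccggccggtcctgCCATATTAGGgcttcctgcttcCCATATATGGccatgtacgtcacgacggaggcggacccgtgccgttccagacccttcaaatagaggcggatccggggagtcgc
EGR2: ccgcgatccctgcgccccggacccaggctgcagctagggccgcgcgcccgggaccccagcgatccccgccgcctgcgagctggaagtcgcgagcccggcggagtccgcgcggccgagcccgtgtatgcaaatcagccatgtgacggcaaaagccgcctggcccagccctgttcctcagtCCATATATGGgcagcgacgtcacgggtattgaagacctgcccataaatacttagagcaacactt
SRF: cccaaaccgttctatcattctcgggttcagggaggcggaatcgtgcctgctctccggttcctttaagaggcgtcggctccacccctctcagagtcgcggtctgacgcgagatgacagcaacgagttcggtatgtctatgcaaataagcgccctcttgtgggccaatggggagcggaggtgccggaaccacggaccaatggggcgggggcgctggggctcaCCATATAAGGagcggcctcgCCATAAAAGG
IER2: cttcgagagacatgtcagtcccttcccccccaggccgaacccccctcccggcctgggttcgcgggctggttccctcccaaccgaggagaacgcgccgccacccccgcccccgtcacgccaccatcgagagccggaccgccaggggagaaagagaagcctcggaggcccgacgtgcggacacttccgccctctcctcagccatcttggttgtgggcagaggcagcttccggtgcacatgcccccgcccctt

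EGR1 held 2 CArG boxes, CCATATTAGG with its first base at -105 from the start and CCATATATGG at -83. EGR2 held CCATATATGG, the same letters as the nearer box of EGR1, at -71 from its most downstream start. SRF held CCATATAAGG and CCATAAAAGG, at -30 and -10 from its first start. No CArG box was found in the windows of NAB1, NAB2 or IER2, which says only that these letters are absent there. Since the reverse complement of a CArG box is again a CArG box, each was counted once.

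The other motifs were searched on both strands. The core TGACGT of the cAMP response element, bound by factors of the ATF and CREB group, stood in 7.97% of all windows and occurred 2 times in EGR1, at -136 and -67 on either side of the CArG boxes, and 1 time in EGR2, at -55. It also occurred 1 time at the most downstream start of NAB1, at -200, where there is no CArG box. The EGR site GCGNGGGCG stood in 9.41% of all windows. It occurred 1 time in EGR1, at -198, and 1 time in NAB2, at -62. At the 2 upstream starts of NAB1, whose windows overlap, it occurred 3 and 4 times, at the middle start of EGR2 1 time and at the first start of SRF 1 time. The GC box GGGCGG, bound by SP1 and its relatives and able to overlap an EGR site, stood in 44.9% of all windows and occurred 6 times in each of the 2 upstream windows of NAB1, 4 times each in NAB2, IER2 and the middle window of EGR2, 2 times in the most upstream window of EGR2 and 1 time at the first start of SRF. The ETS core was searched only in the form CCGGAA, 1 of those that ELK proteins recognise. Windows without this form may hold another ETS site. It stood in 17.2% of all windows and occurred 1 time each in IER2 and the first window of SRF. These are matches of letters, and binding was not measured.

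The libraries held between 29621270 and 36261546 fragments on genes, as solved from the steps of the deposited FPKM (fragments per kilobase, scaled to library depth). The hepatocyte markers albumin, AFP, the apolipoproteins APOA1 and APOB, TTR, SERPINA1 and HNF4A were all above 0 and summed to 7302 to 7401 FPKM with Gln added, 6410 to 6478 after 12 h and 6201 to 6522 after 24 h. Of these 7, none rose and 4 fell at each time, where 31% of all tested genes fell at 12 h and 31.7% at 24 h. Those that fell include AFP, which went from 312.9 to 219.4 FPKM by 24 h (log2 difference -0.51, adjusted p = 9.23e-08 from limma), and APOA1 (-0.41 at 24 h, adjusted p = 4.60e-05). The other cell type markers summed to 36.3 to 36.7, 28.8 to 31.7 and 21.4 to 25.9 FPKM. Nearly all of this was CD68, which fell (-0.66 at 24 h, adjusted p = 9.68e-06). The endothelial and fibroblast markers PECAM1, VWF, COL1A1 and COL3A1 were near 0, with COL1A1 at 0 in all libraries with Gln added, and PTPRC was not analysed here. The part of these shifts in the results below was not tested. Because these are bulk cultures, fewer cells with a transcript and less of it per cell cannot be told apart.

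EGR1 went from a barely expressed gene to a well expressed one. It spans chr5:138465479-138469303 on the plus strand, and its exons overlap no other annotated gene. Its level was 0.438, 0.465 and 0.403 FPKM in the libraries with Gln added, 12.6, 13.6 and 12.8 FPKM at 12 h, and 18.9, 21.9 and 18.5 FPKM at 24 h. Every deprived library lay far above every library with Gln added, and every 24 h library above every 12 h library. The values with Gln added rest on 49, 51 and 45 fragments, and those of the deprived cells on 1171 to 2284. By the ratio of means EGR1 was 29.9-fold higher at 12 h and 45.4-fold higher at 24 h. Among the genes above 0 in a library, it stood at percentile 34.2 ± 0.52 (SD, n = 3) with Gln added, 76.7 ± 0.73 after 12 h and 83.8 ± 1.4 after 24 h.

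The tests used log2(FPKM + 0.1), a scale on which changes of genes near 0.1 FPKM come out too small. EGR1 differed from Gln added by 4.61 (SE 0.074) at 12 h and by 5.21 (SE 0.074) at 24 h. This is what it was picked for, and it was the largest rise of the 11880 genes tested at both times. With a pseudocount of 0.01 in place of 0.1 it came 2nd behind KLHDC7B, at 4.87 and 5.47. Between 12 h and 24 h it differed by a further 0.60 (SE 0.074), or 1.52-fold by the ratio of means, which is also given as a description, since the same deprived libraries led to the choice of EGR1.

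**Figure D1:**
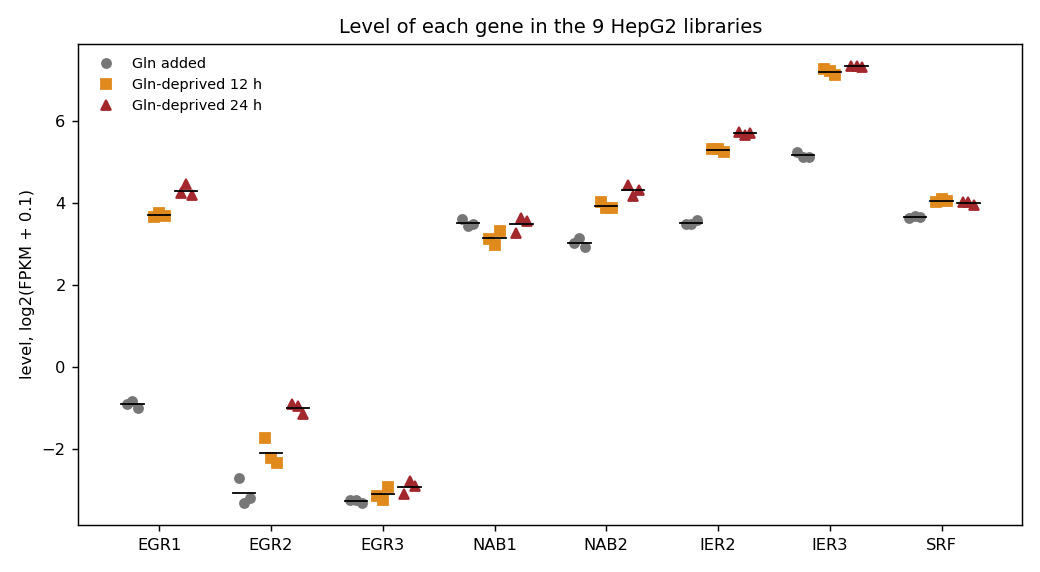
Level of the 8 genes in each of the 9 libraries, as log2(FPKM + 0.1); points are libraries, grouped by Gln added, 12 h and 24 h, and lines are group means. EGR1 moves from -0.90 to 3.71 and 4.31 on this scale.

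The other EGR genes stayed low. EGR2, which is best known from Schwann cells and hindbrain, spans chr10:62811996-62819167 on the minus strand, and 3.91% of its exonic bases lie under another gene of the same strand. It was at 0.0533, 0 and 0.00891 FPKM with Gln added, at 0.203, 0.114 and 0.0968 FPKM at 12 h, and at 0.434, 0.419 and 0.354 FPKM at 24 h. The 3 groups did not overlap, so its order over the groups was that of EGR1, and at 24 h its libraries overlapped those of EGR1 with Gln added. The fragments behind it were 6, 0 and 1 with Gln added, 19, 13 and 11 at 12 h, and 49, 44 and 39 at 24 h. Its mean level was under the 0.5 FPKM set for testing, and summed fragments adjusted for depth were compared instead. The ratio to Gln added was 6.40 at 12 h (exact 95% interval 2.86 to 16.9) and 19.3 at 24 h (9.09 to 48.9), and the ratio of 24 h to 12 h was 3.01 (2.12 to 4.35). Here and below such intervals cover counting error only.

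EGR3, a relative known from muscle spindles and lymphocytes, lies on chromosome 8. It had 1, 1 and 0 fragments with Gln added, 2, 1 and 6 at 12 h, and 3, 8 and 6 at 24 h. The 12 h libraries overlapped those with Gln added, and the 24 h libraries did not. Its ratio to Gln added was 4.69 at 12 h, with an interval of 0.971 to 44.6 that includes no difference, and 8.69 at 24 h (2.06 to 77.5). A change from 12 h to 24 h was not detectable at this depth (ratio 1.85, interval 0.781 to 4.72). EGR4, the remaining EGR gene, had 1, 4 and 0 fragments with Gln added, 11, 15 and 10 at 12 h, and 28, 22 and 26 at 24 h. Its ratio to Gln added was 7.50 (2.93 to 24.5) at 12 h and 15.5 (6.37 to 49.2) at 24 h. EGR1 made up 91.0% ± 6.1 (SD, n = 3) of the FPKM summed over EGR1 to EGR4 with Gln added, 97.6% ± 0.53 after 12 h and 96.3% ± 0.35 after 24 h.

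The corepressors parted: NAB2 rose at both times, while NAB1 fell at 12 h and was not called at 24 h. NAB2 spans chr12:57089043-57095476 on the plus strand, with 2.41% of its exonic bases under STAT6 on the opposite strand. Its level was 8.01, 8.79 and 7.57 FPKM with Gln added, 16.2, 14.7 and 14.7 FPKM at 12 h, and 21.6, 18.1 and 20.1 FPKM at 24 h. The 3 groups did not overlap. On the log2 scale NAB2 had risen by 0.90 at 12 h (SE 0.075, limma adjusted p = 2.69e-06) and by 1.28 at 24 h (adjusted p = 1.21e-07), and it rose further between these times (0.39, adjusted p = 0.00513).

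NAB1 spans chr2:190646746-190692766 on the plus strand, with 12.3% of its exonic bases under genes of the opposite strand. Its level was 12.1, 10.9 and 11.2 FPKM with Gln added, 8.65, 7.80 and 9.92 FPKM at 12 h, and 9.52, 12.3 and 11.8 FPKM at 24 h. All 12 h libraries lay below those with Gln added, and the 24 h libraries overlapped both other groups. NAB1 fell by 0.37 at 12 h (SE 0.10, limma adjusted p = 0.00976), and at 24 h its difference from Gln added was -0.027 (SE 0.10, adjusted p = 0.832). From 12 h to 24 h it rose by 0.35 (adjusted p = 0.0404), a call that was lost in 7 of the 9 fits that leave out 1 library each, named with the values below. The difference from Gln added at 24 h turned positive without Gln added replicate 1 (0.016), without the 24 h replicate 1 (0.086) and after the FPKM of each library were rescaled to equal totals (0.020), with no call in any of the 3.

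Because FPKM is per length, the levels of the corepressors can be set side by side within a library. The ratio of NAB2 to NAB1 was 0.663, 0.810 and 0.675 with Gln added, 1.87, 1.88 and 1.48 at 12 h, and 2.27, 1.47 and 1.70 at 24 h. NAB1 was thus the more abundant of the pair in all 3 libraries with Gln added, and NAB2 in all 6 deprived libraries. The groups did not overlap between Gln added and either time (two-sided exact permutation p = 0.1 for each, the smallest that 3 against 3 libraries allow), and the deprived groups overlapped (exact permutation p = 1). The sum of both was 19.5 ± 0.66 FPKM (SD, n = 3) with Gln added, 24.0 ± 1.3 after 12 h and 31.2 ± 0.75 after 24 h. EGR1 per unit of this sum was 0.0223 ± 0.0012, 0.544 ± 0.051 and 0.635 ± 0.075 in the same order, as a description.

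**Figure D2:**
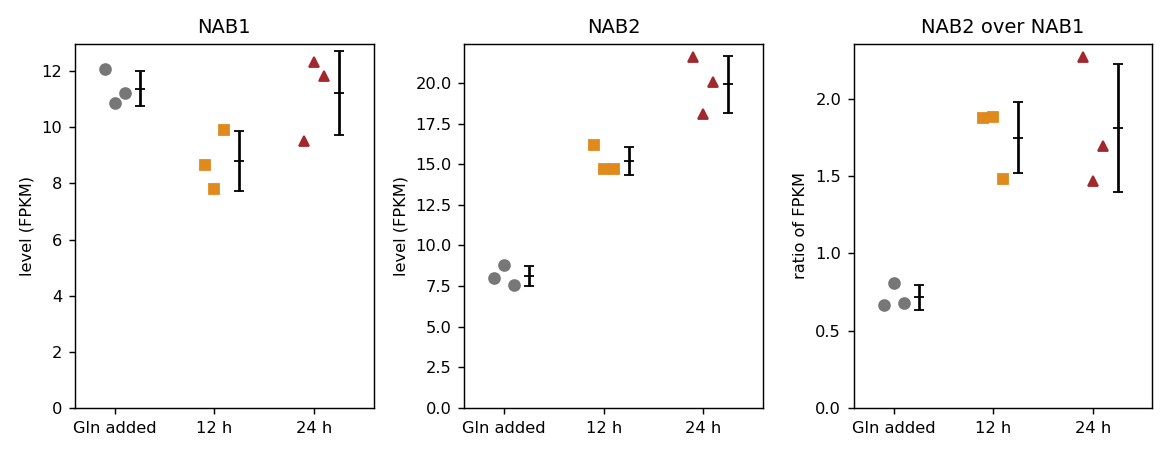
NAB1 (left) and NAB2 (middle) in FPKM and their ratio (right) in each library, with the mean and SD of each group beside the points. The ratio lies between 0.663 and 0.810 with Gln added and between 1.47 and 2.27 in the 6 deprived libraries.

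IER2 and IER3 rose several-fold and were the highest of the 8 genes in the deprived cells. IER2 encodes a nuclear regulator of the immediate early response and spans chr19:13150411-13154911 on the plus strand. Its level was 11.2, 11.1 and 12.0 FPKM with Gln added, 40.1, 39.9 and 38.1 FPKM at 12 h, and 53.8, 50.6 and 52.6 FPKM at 24 h. The 3 groups did not overlap. IER2 rose by 1.77 on the log2 scale at 12 h (SE 0.044, limma adjusted p = 3.55e-10) and by 2.18 at 24 h (adjusted p = 1.01e-10), and the step from 12 h to 24 h was 0.41 (adjusted p = 0.000137). Genes on the opposite strand cover 52.2% of its exonic bases in the annotation used here. That annotation gives it 3079 exonic bases, while the length solved from the FPKM is 2110, so this share need not hold for the counted bases. Whether strand was used in counting is not given in the sources used here, so reads of such genes cannot be told apart from its own.

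IER3, an early response gene tied to survival under stress, spans chr6:30743199-30744548 on the minus strand. Its level was 38.2, 34.9 and 34.7 FPKM with Gln added, 154.4, 150.3 and 141.3 FPKM at 12 h, and 163.3, 163.9 and 161.2 FPKM at 24 h. Both deprived groups lay far above Gln added, and every 24 h library lay above every 12 h library by a small margin. IER3 rose by 2.05 at 12 h (SE 0.046, limma adjusted p = 1.73e-10) and by 2.18 at 24 h (adjusted p = 1.21e-10). The step from 12 h to 24 h was 0.13 (adjusted p = 0.0664) and passed the threshold without Gln added replicate 1 (adjusted p = 0.0467) and with other settings given below. HCG20 and IER3-AS1 on the opposite strand cover 38.9% of its exonic bases.

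The IER genes outside the 8 rose too. IER5 was at 1.96 ± 0.075 FPKM (SD, n = 3) with Gln added, 3.38 ± 0.094 after 12 h and 3.67 ± 0.42 after 24 h, and rose by 0.75 and 0.87 on the log2 scale (adjusted p = 2.12e-05 and 5.55e-06 from limma). IER5L was at 1.96 ± 0.12, 3.51 ± 0.23 and 4.05 ± 0.43 FPKM and rose by 0.81 and 1.01 (adjusted p = 1.93e-05 and 2.65e-06). IER5L-AS1 covers 41.8% of the exonic bases of IER5L on the opposite strand.

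SRF rose by a small amount at both times. It spans chr6:43171269-43181506 on the plus strand, with no overlapping exon of another gene. Its level was 12.4, 12.8 and 12.7 FPKM with Gln added, 16.3, 17.2 and 16.4 FPKM at 12 h, and 16.4, 16.2 and 15.4 FPKM at 24 h. All 6 deprived libraries lay above all 3 with Gln added, and the deprived groups overlapped. SRF rose by 0.39 at 12 h (SE 0.042, limma adjusted p = 1.66e-05) and by 0.34 at 24 h (adjusted p = 4.01e-05), and its difference between 24 h and 12 h was -0.057 (adjusted p = 0.377).

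**Figure D3:**
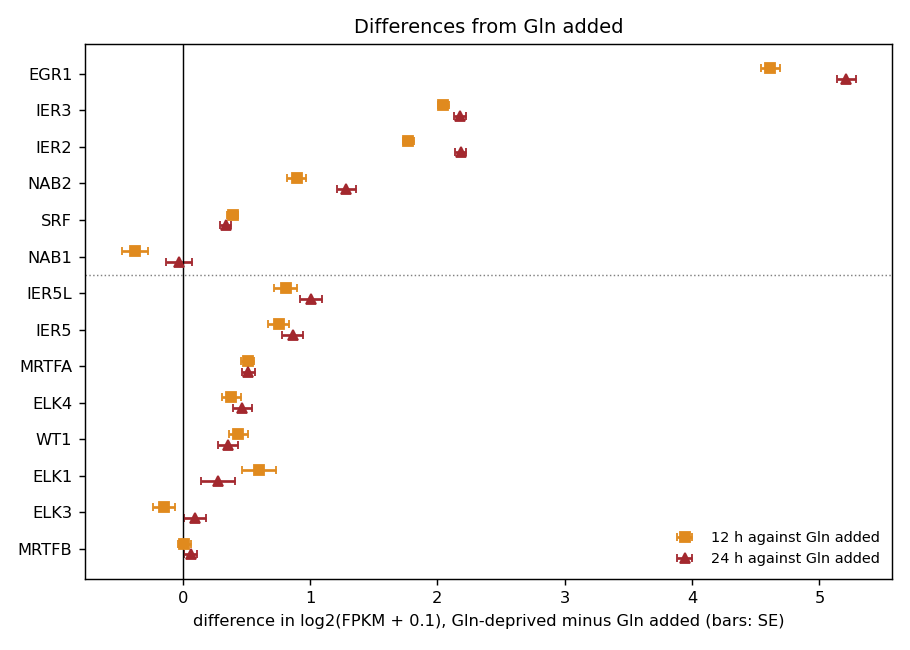
Difference from Gln added in log2(FPKM + 0.1), with squares for 12 h and triangles for 24 h and with the SE of the limma fit as bars; genes above the dotted line belong to the 8, those under it are related genes. EGR1 stands at 4.61 and 5.21, IER3 and IER2 between 1.77 and 2.18, and NAB1 at -0.37 and -0.027.

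With 6 of the 8 genes over the low-expression filter and EGR1 left without a p, 5 had a p in each contrast. At 12 h all 5 were called, 4 higher (IER2, IER3, NAB2 and SRF) and 1 lower (NAB1), where 60.2% of all tested genes were called, 29.1% higher and 31% lower. At 24 h 4 of the 5 were called, all higher, against 64.7% of all tested genes, 33% higher and 31.7% lower. A call was thus common among all genes in both contrasts. By the size of the rise at 24 h IER2 came 32nd, IER3 33rd, NAB2 208th and SRF 2600th of 11880. From 12 h to 24 h 3 of the same 5 were called, all higher (IER2, NAB2 and NAB1, whose call was lost in 7 of the 9 fits above), against 20.1% of all tested genes, 9.57% higher and 10.5% lower. Over these 5 genes, the libraries did not overlap and were higher for 4 at 12 h and 4 at 24 h, against 32.8% and 35.7% of tested genes, and for 3 from 12 h to 24 h, against 17.5%. They did not overlap and were lower for 1 gene at 12 h, NAB1, against 34.4% of tested genes, for 0 at 24 h, against 34.1%, and for 0 from 12 h to 24 h, against 16.9%. The 12 h and 24 h contrasts share the libraries with Gln added, and the step from 12 h to 24 h shares a group with each of them, so the 3 are not independent.

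The order of the levels differed between the groups. With Gln added it ran IER3 (35.9 FPKM), SRF (12.6), IER2 (11.5), NAB1 (11.4), NAB2 (8.12), EGR1 (0.435), EGR2 (0.0207) and EGR3 (0.00361), and the libraries of IER2 and NAB1, and of EGR2 and EGR3, overlapped. At 12 h EGR1 (13.0 FPKM) had passed NAB1 (8.79) and stood below NAB2 (15.2) and SRF (16.6), with all neighbours apart. At 24 h EGR1 (19.8 FPKM) stood above SRF (16.0), and its libraries overlapped those of NAB2 (19.9).

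Among the partners of SRF and the other factors of EGR sites, no fall was called. Of 8 such genes tested, 5 rose and none fell at 12 h, where 29.1% of all tested genes rose and 31% fell, with a median log2 difference of 0.36 against -0.019 over all genes tested, and 5 rose and none fell at 24 h (median 0.32 against 0.013), where the shares were 33% and 31.7%. MRTFA, an SRF coactivator released from actin, went from 4.36 ± 0.079 FPKM (SD, n = 3) to 6.25 ± 0.16 at 12 h and 6.28 ± 0.31 at 24 h (log2 difference 0.51 and 0.52, adjusted p = 1.34e-05 and 9.07e-06 from limma), while its relative MRTFB had 0.012 and 0.064 (adjusted p = 0.847 and 0.291). ELK4 rose by 0.38 and 0.47 (adjusted p = 0.00125 and 0.000271 from limma). ELK1 rose by 0.60 at 12 h (adjusted p = 0.00292) and had 0.28 at 24 h (adjusted p = 0.0913), and ELK3 had -0.15 and 0.10 (adjusted p = 0.154 and 0.330). Among the factors that bind GC-rich or EGR sites, WT1 rose by 0.44 and 0.36 (adjusted p = 0.000561 and 0.00184) and SP1 by 0.34 and 0.48, the latter with adjusted p = 1.94e-06.

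The kinases that lead to SRF and ELK1 were called about as often as genes in general. Of 21 tested genes of the cascade, 5 rose and 6 fell at 12 h (median 0.013), and 7 rose and 7 fell at 24 h (median 0.036), against 29.1% of all tested genes higher and 31% lower at 12 h and 33% and 31.7% at 24 h. MAPKAPK2, a kinase downstream of p38, rose by 0.62 at 24 h (adjusted p = 7.78e-07 from limma), and MET, the receptor of hepatocyte growth factor, by 0.56 (adjusted p = 6.06e-07). MAPK3, which encodes the kinase ERK1, fell by 0.66 (adjusted p = 1.85e-06), and RPS6KA1, a kinase activated by ERK, fell by 0.52 (adjusted p = 8.92e-06). The phosphorylation of these proteins was not measured.

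Most of the other immediate early genes rose. Of 37 tested, 31 rose and 1 fell at 12 h with a median log2 difference of 0.84, and 35 rose and 1 fell at 24 h with a median of 1.21, against -0.019 and 0.013 over all genes tested. The shares over all genes tested were 29.1% higher and 31% lower at 12 h, and 33% and 31.7% at 24 h. This list, like the others here, was written with earlier results of these data known. Its counts beside these shares are therefore a description and not a test. From 12 h to 24 h 17 rose and none fell, where 9.57% of all tested genes rose and 10.5% fell. Not all of these 17 had been called higher at 12 h. DUSP5 went from 1.13 ± 0.27 FPKM (SD, n = 3) to 5.66 ± 0.39 at 12 h and 12.7 ± 1.3 at 24 h (log2 difference 3.40 at 24 h, adjusted p = 1.14e-08 from limma). DUSP6 went from 17.0 ± 0.12 to 70.8 ± 3.2 and 99.9 ± 3.3 FPKM (2.55 at 24 h, adjusted p = 3.48e-11). Both encode phosphatases that act on ERK. The gene that fell was BTG2, an antiproliferative gene, from 14.7 ± 0.17 to 9.63 ± 0.61 and 9.59 ± 0.17 FPKM (-0.61 at 24 h, adjusted p = 1.52e-06). TIPARP, named here after its value was seen as the gene without a call at 24 h, had 0.064 (adjusted p = 0.489).

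Known EGR1 targets were called in both directions. Of 15 tested, with NAB2 among them, 10 rose and 1 fell at 12 h (median 0.28), and 9 rose and 3 fell at 24 h (median 0.49), against 29.1% of all tested genes higher and 31% lower at 12 h and 33% and 31.7% at 24 h. GDF15, a stress-induced cytokine, went from 133.3 ± 1.9 FPKM (SD, n = 3) to 459.9 ± 21 and 466.2 ± 31 (1.80 at 24 h, adjusted p = 6.10e-10 from limma), and VEGFA, the angiogenic growth factor, from 23.3 ± 0.76 to 76.0 ± 1.4 and 76.6 ± 2.5 FPKM (1.71, adjusted p = 1.75e-10). IGF2, a fetal growth factor, was lower at 24 h by 0.26 (adjusted p = 0.00821), after a larger difference of -0.49 at 12 h (limma adjusted p = 0.000155). THBS1, an adhesive matrix protein, was lower at 24 h by 0.23 (adjusted p = 0.000754). THBS1 had been higher at 12 h by 0.17 (adjusted p = 0.00560).

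Of the cytoskeletal genes that SRF drives with MRTF proteins, more fell than rose at each time. Of 15 tested, 1 rose and 9 fell at 12 h (median -0.21), and 5 rose and 9 fell at 24 h (median -0.35). Over all tested genes 29.1% rose and 31% fell at 12 h, and 33% and 31.7% at 24 h, so that the share that rose at 24 h was that of genes in general. TAGLN, an actin-binding protein of smooth muscle, fell from 6.89 ± 0.26 FPKM (SD, n = 3) to 5.40 ± 0.37 and 3.47 ± 0.22 (-0.97 at 24 h, adjusted p = 4.95e-07 from limma), and MYL9, a myosin light chain, from 7.51 ± 0.26 to 5.50 ± 0.081 and 3.89 ± 0.24 (-0.93, adjusted p = 1.66e-07). ZYX, a focal adhesion protein, rose by 0.53 at 24 h (adjusted p = 8.98e-05), and TGFB1I1, another such protein, rose by 1.02 (adjusted p = 0.00219). The level of TGFB1I1 was 0.756 ± 0.16 FPKM with Gln added, 0.656 ± 0.0037 after 12 h and 1.68 ± 0.58 after 24 h, where its libraries spread widely. From 12 h to 24 h 7 of the 15 rose and 5 fell, against 9.57% and 10.5% of all tested genes.

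NAB proteins are known to recruit the NuRD deacetylase complex, whose subunits were called about as often as genes in general. Of 13 tested, 4 rose and 5 fell at 12 h (median -0.036), and 4 rose and 6 fell at 24 h (median -0.11), against 29.1% of all tested genes higher and 31% lower at 12 h and 33% and 31.7% at 24 h. GATAD2B and GATAD2A, scaffold subunits, rose by 0.62 and 0.47 at 24 h (adjusted p = 3.59e-05 and 1.19e-05 from limma). RBBP4 and RBBP7, histone-binding subunits shared with other complexes, fell by 0.53 and 0.42 (adjusted p = 2.94e-07 and 2.75e-06).

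**Figure D4:**
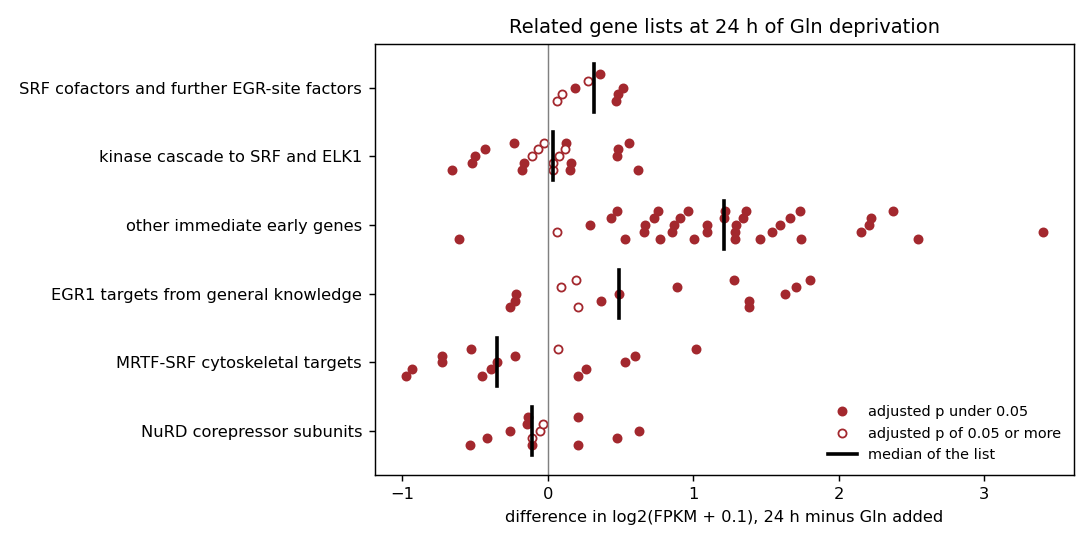
Difference at 24 h from Gln added, on the log2(FPKM + 0.1) scale, for each tested gene of the 6 related lists; filled circles have an adjusted p under 0.05 and vertical lines are list medians. The other immediate early genes have a median of 1.21, and the MRTF-SRF cytoskeletal targets a median of -0.35.

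The genes whose pattern over the 9 libraries was most like that of EGR1 were looked up among the 10867 genes whose mean reached 1 FPKM, as a description. By Pearson correlation of log2(FPKM + 0.1) they were RBM24, ERN1, DSP, IGFBP1 and CRK, with r = 0.999 for all 5. Since the 9 libraries form 3 groups, such values reflect mostly the step from Gln added to deprivation. By distance, the root mean square difference of the log2 values after centring each gene, the nearest was KLHDC7B at 0.455, followed by IGFBP1 (1.28), ASNS (1.69), DUSP5 (1.73) and TSC22D3 (1.86). KLHDC7B went from 0.0130 ± 0.013 FPKM (SD, n = 3) to 1.86 ± 0.22 and 2.70 ± 0.20, and IGFBP1, a secreted binding protein of insulin-like growth factors, from 95.6 ± 2.2 to 828.9 ± 21 and 1147 ± 43. Of the 8 genes themselves, IER3 had the correlation nearest to EGR1 (r = 0.997, 22nd of 10867), then IER2 (0.995, 62nd), NAB2 (0.967, 786th) and SRF (0.957, 985th), and NAB1 had r = -0.369.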

How the data were processed

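RNA from 9 HepG2 libraries was analysed, 3 per group, grouped by the labels. According to the methods, the authors made strand-specific libraries and used STAR for alignment to GRCh38 and DESeq2 for testing. The labels name another library kit, and the submitters' processing notes name HTSeq and R 3.2.0. The values as deposited by the authors are FPKM per gene, and 0 columns could not be matched to a library. Whole fragments were solved from the FPKM steps for 100% of the 22587 genes (within 0.05 of a whole number), and all replicate pairs differed by more than sampling noise.

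FPKM were tested with limma 3.58.1 in R 4.3.3 (lmFit, eBayes with trend) on log2(FPKM + 0.1), on the 11880 genes whose mean reached 0.5 FPKM. A single fit held the 3 groups, and p-values were adjusted by Benjamini-Hochberg over all these genes. A call is an adjusted p under 0.05. Single ratios were compared by two-sided exact permutation tests. The code was tested on simulated data. Members, gene lists and motifs were chosen with earlier results of these data known. The lists come from general knowledge, and 1 marker gene is not reported here. All 8 members are named, and of each list the 2 largest rises and 2 largest falls at 24 h that were called, did not overlap and whose mean reached 1 FPKM, plus EGR4, WT1, the ELK and MRTF genes, IER5 and IER5L. Positions are from GENCODE v44 on GRCh38 and promoters from RefSeq. Shares of exonic bases refer to GENCODE v44, whose exonic lengths differ for most members from those solved from the FPKM. Alternatives were other pseudocounts, filters, scalings and spreads, a replicate block, voom on fragments and leaving out each library.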

Additional observations from a re-analysis of the deposited data

Results flagged for a closer look

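Levels differed between 12 h and 24 h of deprivation for 18 of the 37 named genes tested, with EGR1 counted. This was by the limma contrast between the deprived groups (adjusted p under 0.05 over all genes tested, which 20.1% of the 11880 genes passed). These groups also differ in time in culture, and no cells with Gln added have a stated collection time. Time in culture and length of deprivation thus cannot be told apart. Since most named list genes were taken for a large difference at 24 h, and EGR1 for its rise, their share cannot be read against that of all genes. Among the 8 members these were IER2 (0.41 on the log2 scale, 24 h minus 12 h), NAB2 (0.39) and NAB1 (0.35). EGR1 (0.60) is counted too, but only as a description, since the same deprived libraries led to its choice. Of the MAP kinase phosphatases DUSP5 was higher at 24 h by 1.15 and DUSP6 by 0.50. The cytoskeletal genes went both ways, with TGFB1I1 at 1.18 and ZYX at 0.25, and TAGLN at -0.62 and MYL9 at -0.49. For ZYX, as for NAB1, the 12 h and 24 h libraries overlapped. THBS1 stood at -0.39 and IGF2 at 0.23. MAPKAPK2 was higher at 24 h by 0.19, MET by 0.14 and SP1 by 0.14, and RBBP7 stood at -0.15. The liver marker AFP stood at -0.20 and CD68 at -0.37.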

How the results depend on the processing

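Of 921 values under an alternative, 873 were labelled as kept. A difference was kept if it held its direction and side of the threshold or, where no p was given, stayed within the spread. A count of called genes was kept if it stayed within a fixed ratio of the main count. Genes called from 12 h to 24 h numbered 2386, and 1652 to 2640 under the alternatives. Some alternatives cannot move a value, such as a filter the difference of EGR1, so this tally does not measure stability. The difference of EGR1 from Gln added was 3.29 at 12 h and 3.85 at 24 h with a pseudocount of 1, 4.87 and 5.47 with 0.01, and 4.89 and 5.49 with voom on the recovered fragments. For NAB1 at 24 h against Gln added the value was 0.0195 with FPKM rescaled to the same total, and leaving out each library gave -0.0981 to 0.0859. For NAB1 at 24 h against 12 h the call was lost with no filter (0.35, adjusted p = 0.106), median-ratio scaling (0.31, 0.0519), only the 2 groups compared (0.35, 0.0769) and eBayes without a trend (0.35, 0.0706). It was also lost when any 1 of the 3 libraries with Gln added, 12 h replicate 1 or 2, or 24 h replicate 2 or 3 was left out, with values of 0.27 to 0.46 over all 9. The step of IER3 from 12 h to 24 h passed the threshold with FPKM rescaled to the same total (0.15, adjusted p = 0.0405) and voom (0.13, 0.0322), and ranged from 0.10 to 0.16 with each library left out. The cause of these changes was not tested.

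Replicate numbers did not pair the libraries: of 9 same-number pairs, 2 had correlated deviations over 0.1 (range -0.136 to 0.283). Deprived libraries of different number also shared deviations. The 12 h replicate 3 had -0.467 with 24 h replicate 1 and 0.296 with 24 h replicate 2. The 12 h replicate 2 had 0.269 with 24 h replicate 1. What these shared deviations contribute to the results was not tested. With the replicate block IER3 at 24 h against 12 h was called (0.13, adjusted p = 0.0321), and it changed no other call of the members, with 7341, 7802 and 2586 genes called in all at 12 h, 24 h and 24 h against 12 h, against 7147, 7686 and 2386 without it. Counts of list genes called from 12 h to 24 h were unstable for the SRF cofactors (0 to 2), the kinases (0 to 6) and the NuRD subunits (0 to 3). Depth limits EGR3 and EGR2, with 2 and 7 fragments in all with Gln added.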

Other observations

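Of the 6 immediate early genes of the list whose mean was under 0.5 FPKM and which were not tested, 4 are described here, chosen after their values were seen. FOSB, which encodes an AP-1 subunit, was at 0.0607 to 0.111 FPKM with Gln added, 0.272 to 0.429 after 12 h and 0.558 to 0.661 after 24 h, so that the 3 groups did not overlap. KLF4, a zinc finger factor, was at 0.0461 to 0.122, 0.201 to 0.389 and 0.416 to 0.625 FPKM, in the same order as EGR1. The orphan nuclear receptor gene NR4A3 was at 0.0117 to 0.0234 FPKM with Gln added, at 0.132 to 0.180 after 12 h and at 0.0311 to 0.0544 after 24 h, so that its 24 h libraries lay below its 12 h libraries and above those with Gln added. ARC was at 0 to 0.0194 FPKM with Gln added, 0.0114 to 0.0188 after 12 h and 0.0389 to 0.142 after 24 h. No test was run on these genes.

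EGFR, the receptor of epidermal growth factor in the kinase list, also had a mean under 0.5 FPKM. It was at 0.603 to 0.650 FPKM with Gln added, 0.316 to 0.367 after 12 h and 0.416 to 0.565 after 24 h, and its 3 groups did not overlap.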
